A study of Mus musculus with 34 samples.

Results

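The Hox cluster genes of the mouse were followed through a chemical conversion of fibroblasts into cells that resemble extraembryonic endoderm (XEN-like cells), and from these into neuronal and hepatocyte-like cells. Members were all genes whose symbol is Hox, a cluster letter from a to d and a paralog number, which gave 39 genes. The tables held 39 of 48278 genes in the hepatic table and in the P24 table, 39 of 43397 in the first neuronal table, 38 of 34932 in the second and 37 of 20458 in the table of XEN-like cells. The last does not list Hoxb1 and Hoxd4, and the second neuronal table does not list Hoxd4. HoxA holds 11 genes on chromosome 6 (52155590 to 52260880, minus strand), HoxB 10 on chromosome 11 (96194316 to 96368256, plus strand), HoxC 9 on chromosome 15 (102921103 to 103036852, plus strand) and HoxD 9 on chromosome 2 (74668310 to 74765142, plus strand), all in mm10.

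Hox genes encode homeodomain transcription factors that give cells their position along the head to tail axis. In each cluster the genes lie in the order of their paralog numbers, low numbers being used toward the hindbrain and high numbers toward the tail and the distal limb, and the forebrain uses none. Cultured fibroblasts are known to keep the Hox pattern of the body site they came from, and Polycomb proteins keep the genes silent where they are not used. Paralogs 1 to 3 are called anterior here, 4 to 8 central and 9 to 13 posterior.

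RNA sequencing was done on 34 libraries. In the XEN table there were 8 XEN-like colonies, 3 libraries of the XEN-like line F25 (passages 5, 8 and 13, as libraries 1 to 3), 2 of the line s39 (passages 17 and 3, as libraries 1 and 2), 1 of embryonic XEN cells (passage 8) that the labels describe as chemically-derived eXEN, and 2 of embryonic fibroblasts. F25 is labelled a XEN-like colony and s39 XEN-like cells, and both are called lines here because their titles give passages. The hepatic table held XEN-derived hepatocyte-like cells in 4 libraries, and hepatocytes, tissue of the liver and embryonic fibroblasts in 2 each. The neuronal tables held 2 libraries of TauEGFP colonies, 1 of neuronal cells induced with FICB, 2 of primary cortical neurons, 1 of brain and 1 of embryonic fibroblasts, and a table of its own held 1 library of XEN-derived neuronal cells named P24, a number the file title gives with no further word. All are labelled with the strain Mapttm2(EGFP)Klt/J, which carries EGFP at the tau gene Mapt, except the primary neurons, which are C57BL/6. F25 and s39 are 1 line each, and no label gives ages, the body region of the fibroblasts or which libraries share an animal, so the spread between libraries may be technical. Values are FPKM, fragments per kilobase of gene scaled to the library's mapped fragments, and levels were compared only within a table, since the tables were normalised separately. The apparent depth lay between 4000000 and 12600000 fragments per library, as a rough estimate, and 10312 to 14466 genes per library reached 1 FPKM.

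The cell type markers went against the label in 2 libraries and were uneven in others. All 8 markers of extraembryonic endoderm reached 1 FPKM in every XEN-like and eXEN library. The second library of primary neurons had 3 of 7 neuron markers at 1 FPKM or more and summed to 64.7 FPKM over them, while 4 astrocyte markers summed to 3260 FPKM. The P24 library had 3 of 7 neuron markers at 1 FPKM or more (sum 8.70 FPKM) and all 8 hepatocyte markers (sum 3488 FPKM). Among the hepatocyte-like cells, libraries 1 and 2 summed to 7927 and 7200 FPKM over 8 hepatocyte markers, and libraries 3 and 4 to 1452 and 2204 FPKM. Libraries 1 and 2 held 290 and 167 FPKM of the 8 markers of extraembryonic endoderm, and libraries 3 and 4 held 1944 and 1009 FPKM. The mature hepatocyte gene Cyp3a11 was at 169 and 613 FPKM in libraries 1 and 2 and at 1.03 and 0.326 FPKM in libraries 3 and 4. The albumin gene Alb was listed at 0 in hepatocytes 1 and hepatic tissue 2, against 51325 FPKM in hepatocytes 2 and 44789 FPKM in hepatic tissue 1, so a listed 0 in those columns need not mean low expression. Results that rest on the primary neuron and P24 libraries are given with the first library alone or as values of the library labelled so. The exception is the fit of TauEGFP colonies against primary neurons, which used both libraries of primary neurons. Of the 39 members, 9 share exon bases with another gene of the same strand, 10 with a gene of the opposite strand and 23 with neither. The library kit is not stated to keep the strand, so reads of a Hox gene and of its antisense partner cannot be told apart.

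A few promoters are shown for the genes on which the results turn, as windows of 300 bases placed by the gene start of RefSeq ( GRCm38.p6, each written 5′ to 3′). Hoxd13, Hoxd12, Hoxd11 (which has 2 entries) and Hoxd10 are the neighbours that were near 0 in hepatocyte-like cells. Hoxb8 is a central gene that lay at 0.612 to 2.00 FPKM in their libraries and reached 1 FPKM in 3 of 4. Capitals mark 2 sets of letters on either strand, TTTATG, a form of the site of the Cdx factors, which regulate Hox genes in the embryo, and TGATTNAT, a form of the joint site of Pbx and Hox proteins.
Hoxd13: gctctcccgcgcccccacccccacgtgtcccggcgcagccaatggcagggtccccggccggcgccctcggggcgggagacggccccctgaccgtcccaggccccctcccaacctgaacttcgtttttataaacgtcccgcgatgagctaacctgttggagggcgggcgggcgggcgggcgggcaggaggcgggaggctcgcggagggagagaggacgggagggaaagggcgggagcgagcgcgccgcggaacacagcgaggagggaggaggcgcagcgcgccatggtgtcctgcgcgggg
Hoxd12: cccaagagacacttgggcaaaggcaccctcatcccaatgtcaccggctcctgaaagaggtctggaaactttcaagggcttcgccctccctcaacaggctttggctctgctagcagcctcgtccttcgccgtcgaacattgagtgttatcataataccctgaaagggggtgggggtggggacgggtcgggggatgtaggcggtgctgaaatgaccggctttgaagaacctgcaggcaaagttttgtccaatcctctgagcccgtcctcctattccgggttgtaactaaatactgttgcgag
Hoxd11, first entry: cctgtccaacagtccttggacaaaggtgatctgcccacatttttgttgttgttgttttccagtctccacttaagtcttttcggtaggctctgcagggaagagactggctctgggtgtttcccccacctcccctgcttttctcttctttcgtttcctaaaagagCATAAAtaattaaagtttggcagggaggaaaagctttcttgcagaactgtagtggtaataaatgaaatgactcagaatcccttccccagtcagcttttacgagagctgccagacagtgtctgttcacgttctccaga
Hoxd11, second entry: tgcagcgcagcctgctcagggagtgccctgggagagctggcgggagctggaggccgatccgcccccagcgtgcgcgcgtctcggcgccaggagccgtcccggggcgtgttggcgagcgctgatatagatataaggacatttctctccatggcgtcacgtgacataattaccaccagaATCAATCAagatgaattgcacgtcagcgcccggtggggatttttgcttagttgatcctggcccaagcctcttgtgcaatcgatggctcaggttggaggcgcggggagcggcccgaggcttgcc
Hoxd10: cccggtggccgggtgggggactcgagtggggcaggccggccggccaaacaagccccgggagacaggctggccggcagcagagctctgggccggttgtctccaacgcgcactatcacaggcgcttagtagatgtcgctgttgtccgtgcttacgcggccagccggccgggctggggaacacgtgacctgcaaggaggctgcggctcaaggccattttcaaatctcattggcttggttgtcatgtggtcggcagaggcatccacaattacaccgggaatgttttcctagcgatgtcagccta
Hoxb8: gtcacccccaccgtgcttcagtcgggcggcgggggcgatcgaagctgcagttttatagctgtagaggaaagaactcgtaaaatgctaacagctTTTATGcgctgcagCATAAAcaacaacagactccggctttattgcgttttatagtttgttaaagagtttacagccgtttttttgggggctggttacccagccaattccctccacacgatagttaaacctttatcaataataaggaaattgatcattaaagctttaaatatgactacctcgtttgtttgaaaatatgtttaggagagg

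These windows lie on mm10 chromosome 2 at 74667975 to 74668274 (Hoxd13), 74674763 to 74675062 (Hoxd12), 74679308 to 74679607 and 74682073 to 74682372 (Hoxd11) and 74691641 to 74691940 (Hoxd10), and on chromosome 11 at 96281655 to 96281954 (Hoxb8), all on the plus strand. The Hoxd13 window ends before the GENCODE start of that gene, 74668310. Of the HoxD windows shown, the first of Hoxd11 held 1 match to TTTATG and the second 1 match to TGATTNAT, those of Hoxd13, Hoxd12 and Hoxd10 held neither, and the Hoxb8 window held 2 matches to TTTATG. Of the promoter entries of the same length, 11.9% of 32851 held a match, and of the 24 entries of 22 members 5 did. TGATTNAT was in 2 of the 24 entries and in 3.22% of all entries. CpG pairs, which mark promoters of the kind that Polycomb proteins occupy, numbered 37 in the Hoxd13 window, 4 and 25 in those of Hoxd11, 22 in that of Hoxd10 and 13 in those of Hoxd12 and Hoxb8, against a median of 7 over all entries. Over the entries of members the CpG count lay between 4 and 45 with a median of 14.5.

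The first question was what became of the Hox pattern when fibroblasts became XEN-like colonies. The genes stayed on as a family, and their proportions changed. Members at 1 FPKM or more numbered 24 to 29 of 37 in the 8 colonies, against 29 and 32 in the 2 fibroblast libraries, and the summed Hox level was 144 to 273 FPKM in colonies against 217 and 318 FPKM in fibroblasts. HoxA genes made up 37.7% to 54.6% of that sum in colonies and 18.4% and 26.0% in fibroblasts. HoxB genes made up 9.86% to 21.8% in colonies and 39.5% and 35.7% in fibroblasts. Neither range overlapped with the other group.

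**Figure D1:**
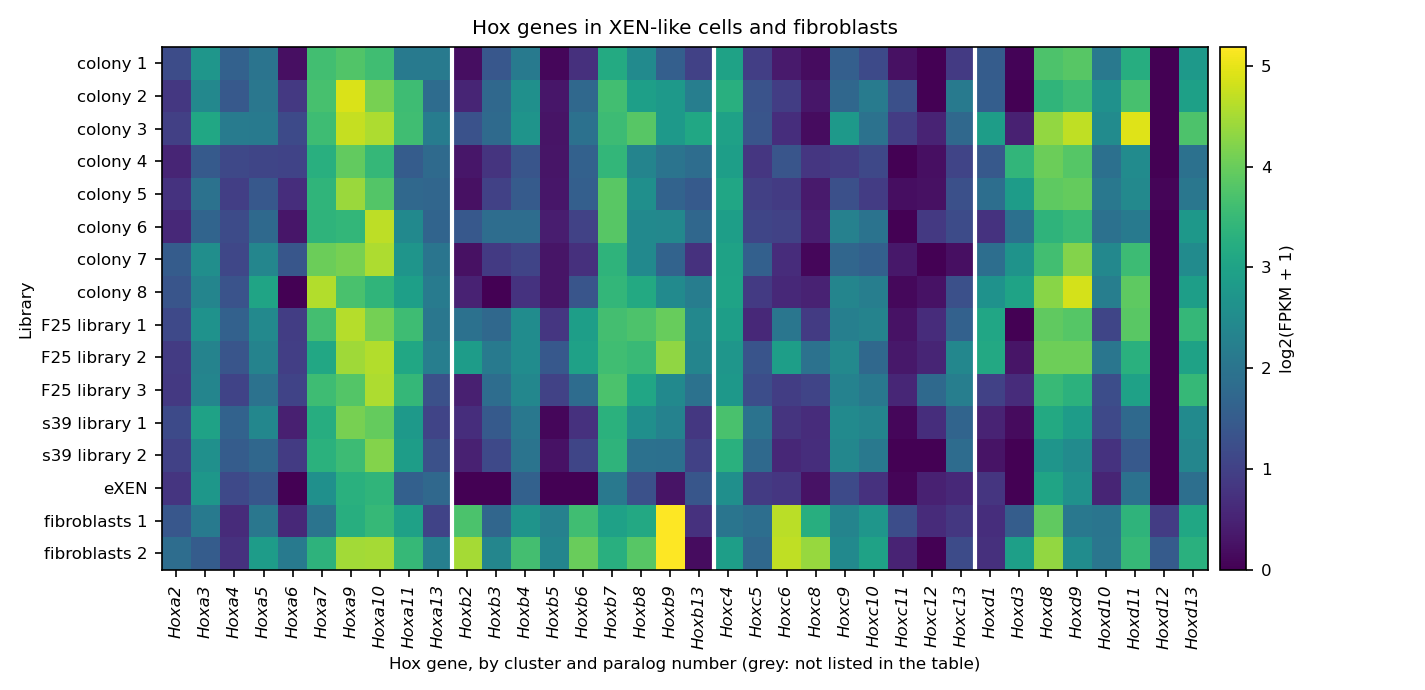
Levels of Hox genes, as log2(FPKM + 1), in each library of the XEN table. Columns are genes by cluster and paralog number and rows are libraries, fibroblasts at the bottom. Hoxb9 and Hoxc6 are bright in both fibroblast rows and darker in the rows of XEN-like cells, while Hoxb7 is of like brightness in colonies, lines and fibroblasts.

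Differences were tested with limma on log2(FPKM + 1) over all genes that reached 1 FPKM in 2 libraries of the comparison, and the word called is used for a log2 difference of 1 or more in size whose p, adjusted over all genes tested by Benjamini-Hochberg, lay under 0.05. Of 35 members tested, 3 were higher in colonies (8.57%, against 18.3% of all 13639 genes tested) and 8 were lower (22.9%, against 17% of all genes), so neither share of members stood far above that of all genes. Their median log2 differences were 0.29 in HoxA, -1.33 in HoxB, -0.60 in HoxC and -0.02 in HoxD, beside 0.17 over all genes. Hoxc12 and Hoxd12 did not pass the filter, Hoxb13 reached 1 FPKM in colonies alone, and Hoxb5 and Hoxc8 did so in fibroblasts alone, so a difference in those 3 was built into their selection. Scaling the libraries by median ratios moved the median of all genes to -0.06 and left 3 members higher and 9 lower. Over all genes it moved the share of higher calls among the called to 39.9%, where it had been 51.9%.

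Among the anterior genes, Hoxb2, which is used in the hindbrain, fell to 0.143 to 1.67 FPKM in colonies (median 0.328), against 12.2 and 21.4 FPKM in fibroblasts (log2 difference -3.51 ± 0.50, limma adjusted p = 5.61e-05). The 2 groups of Hoxb2 values did not overlap, and this gene overlaps the antisense gene Hoxb3os.

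The central genes of HoxB and HoxC, which are used along the neck and trunk, held 5 of the lower calls. The others were 1 anterior and 2 posterior genes. Hoxc6 was at 0.297 to 1.58 FPKM in colonies (median 0.730), against 24.04 and 24.7 FPKM in fibroblasts (log2 difference -3.88 ± 0.38, limma adjusted p = 1.91e-06). Hoxc8 was at 0.0581 to 0.765 FPKM in colonies, against 8.56 and 19.9 FPKM in fibroblasts (log2 difference -3.51), a gene that passed the filter through fibroblasts. Both genes lay below 2 FPKM in all 8 colonies. Hoxb6 was at 0.646 to 2.84 FPKM in colonies, against 11.1 and 15.1 FPKM in fibroblasts, and Hoxb5 at 0.0600 to 0.330 FPKM against 3.83 and 4.11 FPKM, and both were called lower. Hoxb4 was called lower as well (log2 difference -1.33 ± 0.40, limma adjusted p = 0.0138). Without fibroblast library 2 its log2 difference was -0.21 and the adjusted p 0.733.

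Of the next genes of HoxB, Hoxb7 and Hoxb8 were not called and Hoxb9 was called lower. Hoxb7, a trunk gene between Hoxb6 and Hoxb8, was at 8.07 to 13.4 FPKM in colonies (median 10.4), against 6.88 and 8.65 FPKM in fibroblasts (log2 difference 0.40 ± 0.22, limma adjusted p = 0.164). Hoxb8 was at 4.04 to 13.3 FPKM in colonies (median 4.80), against 7.77 and 13.3 FPKM in fibroblasts (log2 difference -0.67 ± 0.38, limma adjusted p = 0.164). For these genes the groups overlapped and the test was not passed. Hoxb9, the next gene on the tail side, fell to 1.95 to 6.01 FPKM in colonies (median 3.67), against 35.5 and 35.4 FPKM in fibroblasts, where it was the highest member (log2 difference -2.98 ± 0.45, limma adjusted p = 8.87e-05). Hoxb7, Hoxb8 and Hoxb9 thus stood at 10.8 ± 1.89, 6.33 ± 3.13 and 3.75 ± 1.67 FPKM in colonies (SD, n = 8) and at 7.77 ± 1.25, 10.5 ± 3.90 and 35.4 ± 0.0669 FPKM in fibroblasts (SD, n = 2), so their order by level differed between the groups.

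**Figure D2:**
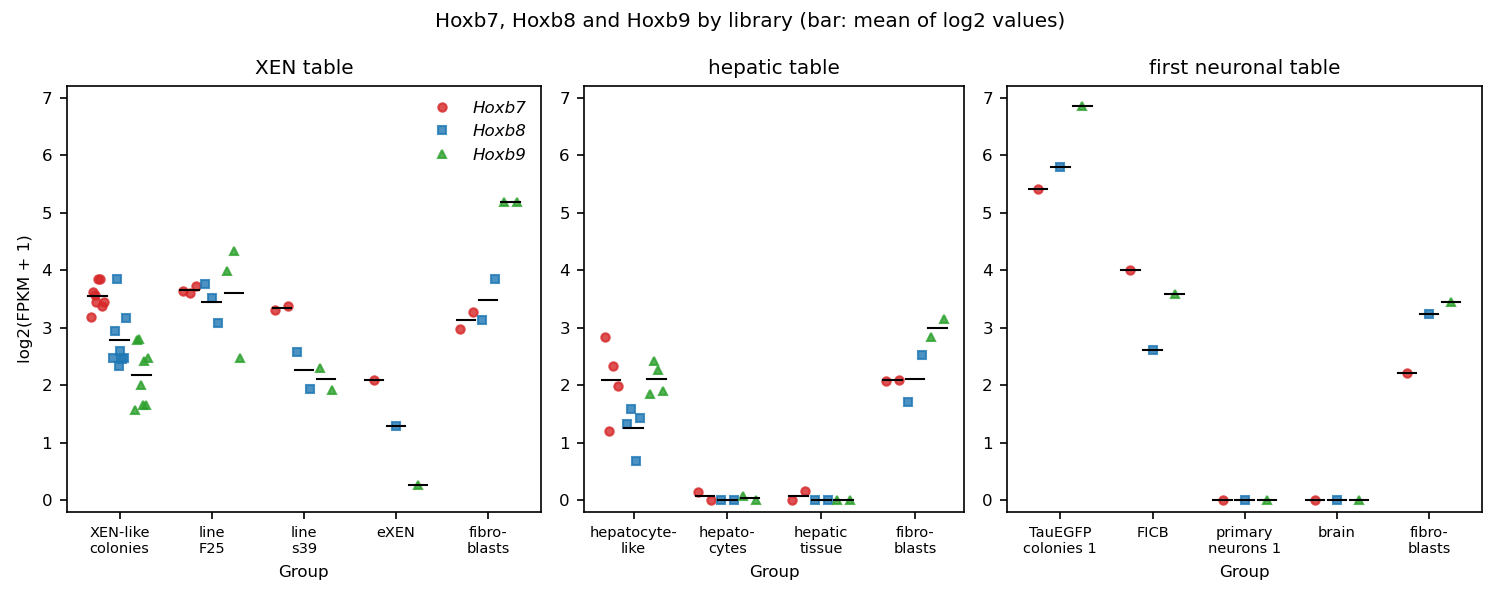
Levels of Hoxb7, Hoxb8 and Hoxb9, as log2(FPKM + 1), by library in the XEN, hepatic and first neuronal tables, with a bar at the mean of each group. By its mean Hoxb9 is the highest of the 3 in fibroblasts of the XEN table and the lowest in colonies, and all 3 lie at or near 0 in hepatocytes, hepatic tissue, primary neurons and brain.

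Among the posterior genes, which pattern the lower trunk, limbs and tail, Hoxd9 rose to 10.5 to 27.8 FPKM in colonies (median 13.98), against 3.23 and 4.79 FPKM in fibroblasts (log2 difference 1.74 ± 0.35, limma adjusted p = 0.00102). Within flow cell HJMKLALXX alone the adjusted p of Hoxd9 was 0.0614. Hoxb13 was at 0.670 to 7.49 FPKM in colonies, against 0.668 and 0.131 FPKM in fibroblasts, and was called higher. Hoxc10 was called lower, at 0.907 to 3.63 FPKM in colonies against 5.64 and 6.90 FPKM in fibroblasts (limma adjusted p = 0.0133), and lost the call without fibroblast library 2 (adjusted p = 0.179), within the HVN flow cells (0.101) and within HJMKLALXX (0.121). Hoxa9, Hoxa10, Hoxa11, Hoxa13, Hoxd10, Hoxd11 and Hoxd13 overlapped between the groups and were not called. Hoxd13, the last gene of its cluster, was for instance at 2.80 to 12.4 FPKM in colonies against 7.51 and 8.86 FPKM in fibroblasts. Hoxd12 was at 0 in 7 of the 8 colonies and at 0.0523 FPKM in the other, against 0.906 and 1.79 FPKM in fibroblasts.

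One member followed the flow cell named in the library titles. Hoxd3 was at 2.75 to 9.70 FPKM in the 5 colonies of flow cell HJMKLALXX and at 0 to 0.386 FPKM in the 3 colonies of the HVN flow cells. The fibroblast library of HJMKLALXX had 6.57 FPKM and that of the HVN flow cells 1.89 FPKM, and all 5 libraries of the lines and the eXEN library, also on HVN flow cells, lay between 0 and 0.577 FPKM. Colonies and fibroblasts span both kinds of flow cell, but for the lines and the eXEN library, all on HVN flow cells, group and flow cell cannot be told apart by their own values. The gene shares exon bases with Hoxd4 and with 2 antisense genes. Within the HVN flow cells 7 members were called in colonies against fibroblasts, and within HJMKLALXX 6. Hoxb2, Hoxb6 and Hoxb9 were called lower in both.

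The XEN-like lines, which had been passaged, were compared with fibroblasts in the same way, with the 2 lines weighted equally. Of 34 members tested, 1 was higher (2.94%, against 20.2% of all 13287 genes) and 7 were lower (20.6%, against 15.7% of all genes). The lower ones were Hoxb2, Hoxb4, Hoxb5, Hoxb6, Hoxb9, Hoxc6 and Hoxc8, which were also called lower in colonies, a comparison that shares the fibroblast libraries. After median-ratio scaling 13 of 35 members were lower and 1 was higher, beside 13.9% of all genes higher. The share of all genes called lower with that scaling is not given, so the 13 cannot be read against a background. The median of all genes moved to -0.12 where it had been 0.20. The share of higher calls among all called genes was 39.8% with that scaling and 56.3% without it. Hoxb4 (log2 difference -1.25 ± 0.45, limma adjusted p = 0.037) lost its call under 9 of 14 alternatives, over which its adjusted p lay between 0.00169 and 0.424.

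**Figure D3:**
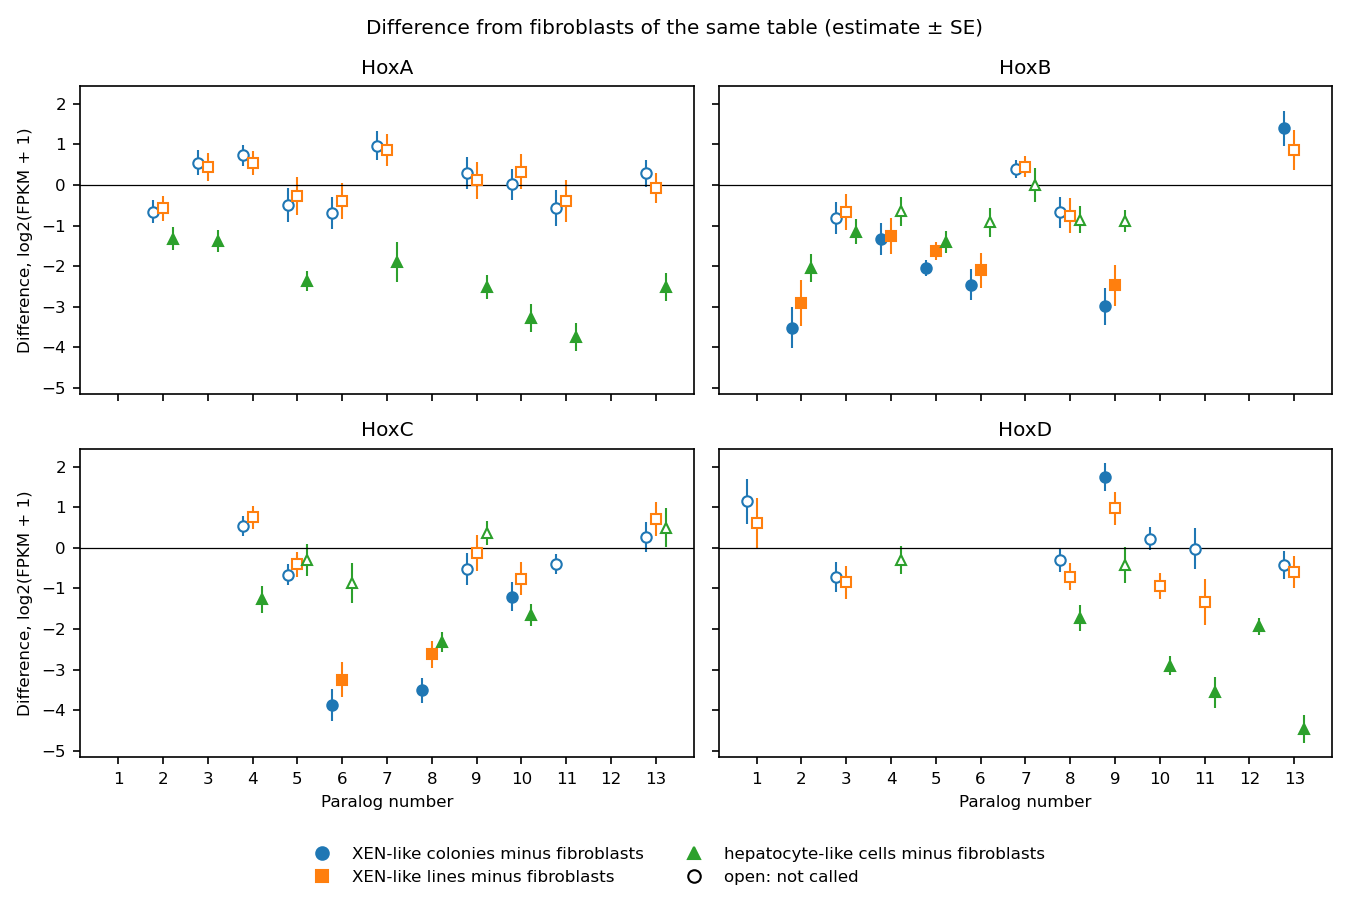
Log2 difference from the fibroblasts of the same table, with its SE, for tested Hox genes, by paralog number in 4 panels for the clusters. Blue circles are XEN-like colonies, orange squares XEN-like lines and green triangles hepatocyte-like cells, and filled symbols passed the test. The green symbols of HoxA and HoxD reach -3.74 at Hoxa11 and -4.46 at Hoxd13, which passed the filter through fibroblasts alone, where the blue symbols lie at -0.57 and -0.42.

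Within the lines the values of Hoxb9 were uneven. It was at 14.9, 19.1 and 4.54 FPKM in F25 libraries 1 to 3 and at 3.94 and 2.76 FPKM in s39 libraries 1 and 2, against 35.5 and 35.4 FPKM in fibroblasts. Hoxc6 was at 3.09, 6.51 and 0.922 FPKM in F25 and 0.706 and 0.491 FPKM in s39, against 24.04 and 24.7 FPKM in fibroblasts. The F25 libraries 1 and 2 were the high ones for both genes. The same 2 libraries held 8.31 and 21.0 FPKM of the fibroblast gene Prrx1, and the other 3 line libraries 0 to 0.0867 FPKM. The 12 fibroblast markers summed to at most 667 FPKM in F25 and 183 FPKM in s39, against at least 7575 FPKM in fibroblasts, and the part of these markers in the Hox values was not tested. Without F25 libraries 1 and 2 the call of Hoxb9 held.

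Lines and colonies did not differ in any member at the threshold. Of 34 members 0 were called by limma, beside 0.0897% of all 13375 genes. An unadjusted p under 0.05 was found for 4 members (Hoxc8, Hoxd9, Hoxd10 and Hoxd11), with no share of all genes given to set beside it. Hoxb7 was at 10.6 ± 1.41 FPKM in the lines (SD, n = 5) and 10.8 ± 1.89 FPKM in the colonies (SD, n = 8), a log2 difference of 0.06 ± 0.20. Hoxb8 differed by -0.08 ± 0.33 and Hoxb9 by 0.51 ± 0.40.

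Between the 2 lines 0 of 32 members were called by limma, beside 0.315% of all 12400 genes. An unadjusted p under 0.05 was found for 14 members, a count that likewise has no share of all genes beside it. Hoxb8 and Hoxd11, neither of them called, are given by value as a description. Hoxb8 was at 12.5, 10.4 and 7.41 FPKM in F25 and at 4.96 and 2.82 FPKM in s39 (log2 difference 1.19 ± 0.43, limma adjusted p = 0.262). Hoxd11 was at 13.5, 8.76 and 6.83 FPKM in F25 and at 2.40 and 1.73 FPKM in s39 (log2 difference 1.76 ± 0.57, limma adjusted p = 0.207). Without F25 library 3, 4 members were called higher in F25, namely Hoxb6, Hoxb9, Hoxc6 and Hoxd1. The F25 libraries left in that setting, 1 and 2, are those that held the fibroblast gene Prrx1, as given above. The part of fibroblast RNA in these calls was not tested, and no share of all genes is given for that setting.

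The eXEN library was 1 sample and is given by its values. It had 19 of 37 members at 1 FPKM or more, a summed Hox level of 93.6 FPKM, and 60.1% of that sum in HoxA. Hoxa10 was at 9.52 FPKM and Hoxa9 at 8.79 FPKM. Hoxb7, Hoxb8 and Hoxb9 were at 3.26, 1.43 and 0.200 FPKM, each below every colony and line library, and Hoxb2, Hoxb3, Hoxb5 and Hoxb6 were at 0.

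Genes that work with or above the Hox genes were examined as lists in the XEN table. Here and in the later comparisons, a list gene that reached 1 FPKM in 1 group alone had a difference built into its selection, as for the members. Of the regulators that switch Hox genes on along the embryonic axis, 3 of 8 tested were higher in colonies and 2 lower (list median 0.20, beside 0.17 over all genes). Cdx2, a homeobox activator of central and posterior Hox genes, was at 5.99 to 88.0 FPKM in colonies against 0 and 0.0639 FPKM in fibroblasts. T, the mesoderm factor Brachyury, was at 1.57 to 14.2 FPKM in colonies and listed at 0 in both fibroblast libraries. Cdx2 and T thus passed the filter through colonies alone, so their differences are a description. Nr6a1, a nuclear receptor of the trunk, was also higher in colonies. The retinoic acid receptor gene Rarg fell to 0.699 to 5.57 FPKM in colonies, against 48.0 and 45.4 FPKM in fibroblasts, and Gdf11 was called lower. In the lines the counts were 3 higher and 2 lower (Rara and Rarg) of 8, with Cdx2 at 15.0 to 28.0 FPKM.

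Of the Polycomb genes, 8 of 16 tested were higher in colonies and 0 lower (list median 0.96), and 6 were higher and 0 lower in the lines (list median 0.67). Ezh2, the enzyme that writes the silencing mark on histone H3, was at 47.4 ± 17.3 FPKM in colonies (SD, n = 8) and 12.05 ± 0.280 FPKM in fibroblasts (SD, n = 2), a log2 difference of 1.78 ± 0.25 (limma adjusted p = 5.51e-05). Phc1 and Ezh1 rose by 1.96 ± 0.30 and 1.95 ± 0.40 on the same scale. Of the trithorax and demethylase genes, which counter Polycomb, 1 of 7 was higher in colonies (Wdr5) and 3 of 7 in the lines (Wdr5, Ash2l and Rbbp5), with 0 lower in both. Of the Hox cofactors, which bind DNA together with Hox proteins, 0 of 8 were higher and 2 lower in colonies, among them Meis3, and 1 was lower in the lines. Of 2 noncoding genes of the clusters that were tested, Hoxb3os was lower in colonies and none was called in the lines.

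Positional factors of limb and body wall fibroblasts gave 7 of 11 lower and 1 higher in colonies (list median -1.75), and 7 of 10 lower and 1 higher in the lines (list median -2.05). Prrx1, a limb mesenchyme factor, was at 0.168 to 2.46 FPKM in colonies against 165 and 255 FPKM in fibroblasts. Pitx1, known as a hindlimb factor, was the higher one, at 641 to 1392 FPKM in colonies against 3.56 and 6.92 FPKM in fibroblasts (log2 difference 7.08 ± 0.29, limma adjusted p = 2.44e-10). Of the forebrain and midbrain homeobox genes 2 of 12 were higher in colonies (En2 and Otx1) and 3 lower (Emx2, En1 and Dlx2), and 2 of 10 were higher and 3 lower in the lines. Emx2 stands in both of these lists.

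The hepatic table asked which Hox genes remained in hepatocyte-like cells, compared first with fibroblasts. The summed level was lower, with calls among anterior, central and posterior genes. The 4 hepatocyte-like libraries had 13, 13, 14 and 13 of 39 members at 1 FPKM or more, against 28 and 32 in fibroblasts. Their summed Hox levels were 39.6, 45.6, 43.7 and 35.2 FPKM, against 247 and 186 FPKM in fibroblasts. Posterior genes made up 32.0% to 52.2% of the sum in hepatocyte-like cells and 73.6% and 55.2% in fibroblasts. In bulk samples fewer cells that express a gene and less RNA per cell cannot be told apart. Hepatocyte-like libraries 1 and 2 had 20 members at exactly 0 each, and libraries 3 and 4 had 6 and 5. The apparent depth was 4500000 and 6300000 fragments in libraries 1 and 2, and 11200000 and 8900000 in libraries 3 and 4. The part of depth in these zeros was not tested.

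**Figure D4:**
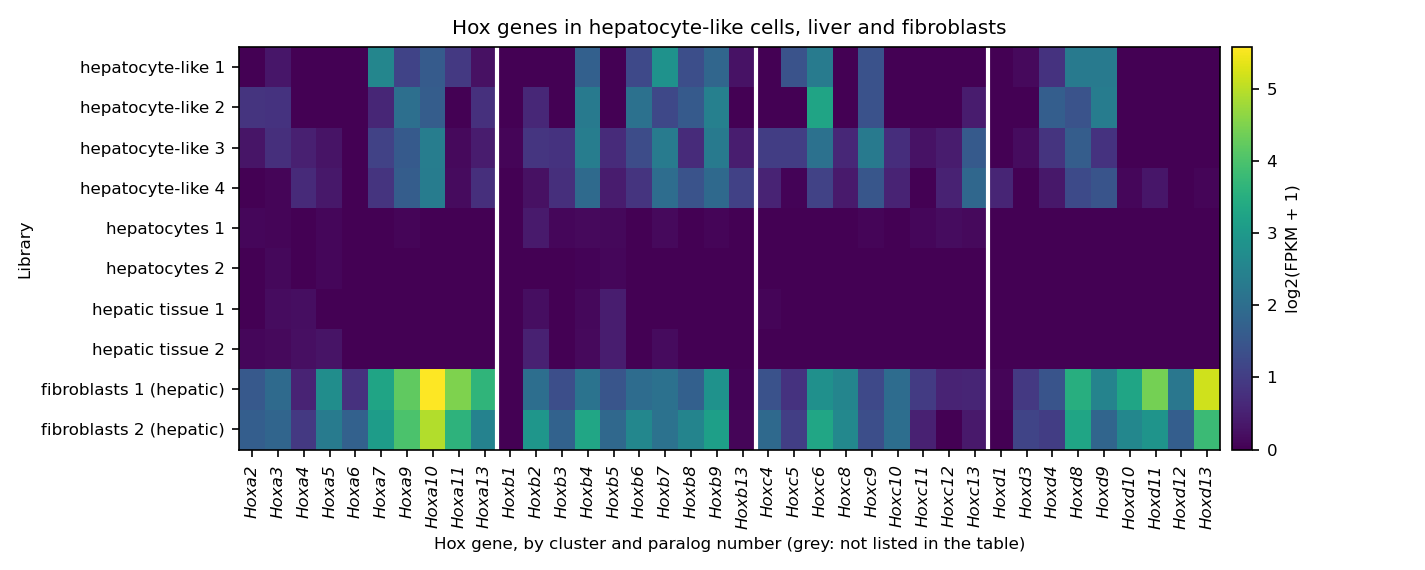
Levels of Hox genes, as log2(FPKM + 1), in each library of the hepatic table, with the 4 hepatocyte-like libraries at the top and the 2 fibroblast libraries at the bottom. Hoxd10 to Hoxd13 are dark in the hepatocyte-like rows and brighter in the fibroblast rows, and the rows of hepatocytes and hepatic tissue are dark throughout.

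Of 31 members tested 19 were lower in hepatocyte-like cells (61.3%, against 15.9% of all 14928 genes) and 0 were higher. The 19 included 14 that reached 1 FPKM in fibroblasts alone, in which a difference was built in by the filter. The other 5 were Hoxa7, Hoxa9, Hoxa10, Hoxc4 and Hoxd8, of 16 members that reached 1 FPKM in both groups. Hoxa7 lost its call under 5 of 15 alternatives, among them those without hepatocyte-like libraries 3 and 4 (adjusted p = 0.0603), without fibroblast library 1 (0.149) and without fibroblast library 2 (0.120). Hoxd8 lost its call without fibroblast library 1 (adjusted p = 0.0737). Lower calls numbered 8 of 9 in HoxA, 3 of 8 in HoxB, 3 of 7 in HoxC and 5 of 7 in HoxD, and the median log2 differences were -2.37, -0.90, -0.87 and -1.94, beside 0.10 over all genes. By position there were 4 of 5 anterior, 6 of 13 central and 9 of 13 posterior members. Median-ratio scaling moved the median of all genes to -0.10 and gave 20 of 30 lower, with no share of all genes called lower given. With hepatocyte-like libraries 3 and 4, the pair with more markers of extraembryonic endoderm, left out, 18 were lower, and with libraries 1 and 2 left out 20 were lower and 1 higher. These settings were chosen after seeing the data, and no share of all genes is given for them. Members that reached 1 FPKM in 1 group alone had a difference built in there too.

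The HoxD genes at the tail end were near 0. Hoxd10 to Hoxd13 are among the 14 members that passed the filter through fibroblasts, so their differences are a description. Hoxd13 was at 0, 0, 0 and 0.0509 FPKM in the hepatocyte-like libraries, against 34.9 and 12.9 FPKM in fibroblasts (log2 difference -4.46). Hoxd12 was listed at 0 in all 4 hepatocyte-like libraries, against 3.60 and 2.19 FPKM in fibroblasts. Hoxd11 was at 0, 0, 0 and 0.266 FPKM in hepatocyte-like cells, against 20.2 and 6.42 FPKM in fibroblasts (log2 difference -3.56). Hoxd10 was at 0, 0, 0 and 0.0727 FPKM, against 8.70 and 4.96 FPKM. Hoxd10, Hoxd11, Hoxd12 and Hoxd13, whose promoters stand above, were undetected in hepatocyte-like libraries 1 to 3. The next genes of the cluster, Hoxd9 and Hoxd8, were present: Hoxd9 was at 3.90, 4.08, 0.766 and 1.75 FPKM in hepatocyte-like cells, against 4.65 and 2.55 FPKM in fibroblasts, and was not called (log2 difference -0.43 ± 0.44, limma adjusted p = 0.498).

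In HoxA the tail genes Hoxa11 and Hoxa13, likewise 2 of those 14, were also low. Hoxa11 was at 0.910, 0, 0.0978 and 0.123 FPKM in hepatocyte-like cells, against 21.6 and 11.1 FPKM in fibroblasts (log2 difference -3.74). Hoxa13 was at 0.196 to 0.704 FPKM, against 11.5 and 4.55 FPKM. Hoxa10 fell and stayed detectable, at 2.02, 2.14, 4.16 and 4.06 FPKM in hepatocyte-like cells, against 46.8 and 29.8 FPKM in fibroblasts (log2 difference -3.27 ± 0.35, limma adjusted p = 0.000116). Hoxa5, a gene of the lung and neck region and another of the 14, was at 0 to 0.280 FPKM, against 5.62 and 4.03 FPKM. In HoxC, Hoxc8 was at 0, 0, 0.527 and 0.324 FPKM, against 4.82 and 5.11 FPKM, and Hoxc10 was called lower, while Hoxc6 and Hoxc9 were not called.

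The HoxB genes from Hoxb6 to Hoxb9 were not called. Hoxb7 was at 6.13, 1.30, 4.01 and 2.96 FPKM in hepatocyte-like cells, against 3.21 and 3.28 FPKM in fibroblasts (log2 difference 0.00 ± 0.41, limma adjusted p = 0.999). Hoxb8 was at 1.52, 2.00, 0.612 and 1.68 FPKM, against 2.27 and 4.72 FPKM (log2 difference -0.86 ± 0.33, limma adjusted p = 0.0798). Hoxb9 was at 2.60, 4.36, 3.81 and 2.74 FPKM, against 6.15 and 7.87 FPKM (log2 difference -0.88 ± 0.28, limma adjusted p = 0.0398), below both fibroblast libraries but short of a log2 difference of 1. Fibroblast markers summed to 10.995 to 132 FPKM over 12 genes in hepatocyte-like cells and to 4266 and 5600 FPKM in fibroblasts, and Prrx1 was at 0 to 1.93 FPKM against 105 and 140 FPKM. The part of these markers in the Hox values was not tested.

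Either fibroblast library carries weight here. With only 1 of them left, the filter of 2 libraries removed the genes on in fibroblasts alone, 17 members were tested and 2 (without library 1) or 3 (without library 2) were called. With a filter of 1 library, a setting chosen after seeing the data, genes on in the remaining fibroblast library alone entered again. A lower level in them was built in. Within flow cell HH2TTALXX, which held hepatocyte-like libraries 3 and 4 and both fibroblast libraries, 17 members were lower and 1, Hoxc13, was higher. Hoxc13 was at 2.00 and 2.62 FPKM in these hepatocyte-like libraries and at 0.485 and 0.295 FPKM in fibroblasts. It thus passed the filter through hepatocyte-like cells alone. Its difference was built in, as was that of any member on in fibroblasts alone. No share of all genes is given for the settings of this paragraph.

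Beside hepatocytes and hepatic tissue the Hox genes of hepatocyte-like cells were high. All 4 hepatocyte and tissue libraries were on flow cell HJM3YALXX, which held no other library. Group and flow cell thus cannot be told apart in these comparisons, nor in those of the gene lists below. Hepatocytes and hepatic tissue had no member at 1 FPKM, and their summed Hox levels were 1.33 and 0.266 FPKM (hepatocytes) and 0.944 and 1.57 FPKM (tissue), against 35.2 to 45.6 FPKM in hepatocyte-like cells as given above. All 15 members that passed the filter did so through the hepatocyte-like libraries alone, so their differences were built into the selection. Of these, 11 were called higher than in hepatocytes and 11 higher than in hepatic tissue (73.3% each), where 47.1% of 13935 and 47.8% of 14016 genes were called higher. The median of all genes lay at 1.10 against either reference and moved to 0.16 and 0.20 after median-ratio scaling, with 10 members called higher in each. Of all called genes 85.0% were higher than in hepatocytes and 84.5% higher than in tissue, and 54.9% and 53.5% after scaling. With either library of hepatocytes, or of tissue, left out, 8 members were called, Hoxb6, Hoxb8 and Hoxd9 having lost their call. Hoxb9 had a log2 difference of 2.08 from hepatocytes, where it was at 0.0480 and 0 FPKM. Hoxc6 was at 4.03, 8.50, 3.22 and 1.14 FPKM in hepatocyte-like cells and listed at 0 in all 4 hepatocyte and tissue libraries. Hoxb8, likewise listed at 0 there, had a log2 difference of 1.26 and of 0.97 after scaling.

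The libraries of hepatocyte-like cells also held Cdx2, at 14.4, 6.53, 22.1 and 35.3 FPKM, while it was listed at 0 in all hepatocyte, tissue and fibroblast libraries. Against fibroblasts 1 of 6 axial regulators was higher (Cdx2) and 2 lower (Rarg and Gdf11), with a list median of -0.10. Cdx2 passed the filter through hepatocyte-like cells alone, so its difference was built in. Of 17 Polycomb genes 1 was higher, Ezh2 (26.8 ± 9.96 FPKM in hepatocyte-like cells, n = 4, and 7.95 ± 1.93 FPKM in fibroblasts, n = 2, SD), and 0 were lower. Of 9 trithorax and demethylase genes 1 was lower (Kmt2a). Of 8 Hox cofactors 1 was higher, Pbx4, and 2 were lower, among them Pbx3. Of 12 limb and body wall factors 11 were lower, of 5 forebrain and midbrain genes 4 were lower, and of 6 noncoding genes of the clusters 2 were lower, Hoxa11os at 1.41 ± 0.895 against 19.9 ± 13.2 FPKM and Hoxb3os. Among those tested, the limb factors Tbx4, Tbx5, Meox2 and Lmx1b and the midbrain gene En1 reached 1 FPKM in fibroblasts alone. Against hepatocytes and tissue, where the median of all genes lay at 1.10, 12 and 13 of 17 Polycomb genes were higher, 5 and 5 of 8 cofactors, 4 and 6 of 9 trithorax and demethylase genes, 4 and 3 of 6 axial regulators, 2 and 2 of 4 limb factors and 2 and 2 of 4 noncoding genes, with 0 lower in each and no call among forebrain genes. These counts stand beside 47.1% and 47.8% of all genes called higher. After median-ratio scaling, with 19.5% and 19.7% of all genes higher, 6 and 6 of 17 Polycomb genes, 3 of 8 and 3 of 7 cofactors, 0 and 0 of 9 trithorax and demethylase genes, 1 and 1 of 5 axial regulators, 1 and 1 of 4 limb factors and 1 and 2 of 2 noncoding genes were higher.

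The neuronal tables asked how the Hox levels of TauEGFP colonies stood beside those of neurons. TauEGFP colonies held the highest summed Hox level of their tables. It was 456 FPKM in TauEGFP colonies 1 and 794 FPKM in TauEGFP colonies 2, against 0.515 and 0.712 FPKM in the libraries of primary neurons and 0.379 FPKM in brain. HoxB made up 62.1% and 59.1% of the sum in the TauEGFP colonies. Hoxb9 was at 114 and 162 FPKM in the TauEGFP colonies and listed at 0 in both libraries of primary neurons. Hoxb8 was at 54.3 and 130.5 FPKM, against 0 and 0.0430 FPKM, and Hoxb7 at 41.3 and 109.7 FPKM, against 0 in both. The 27 members tested passed the filter through the TauEGFP libraries, so a higher level there was fixed by the filter.

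**Figure D5:**
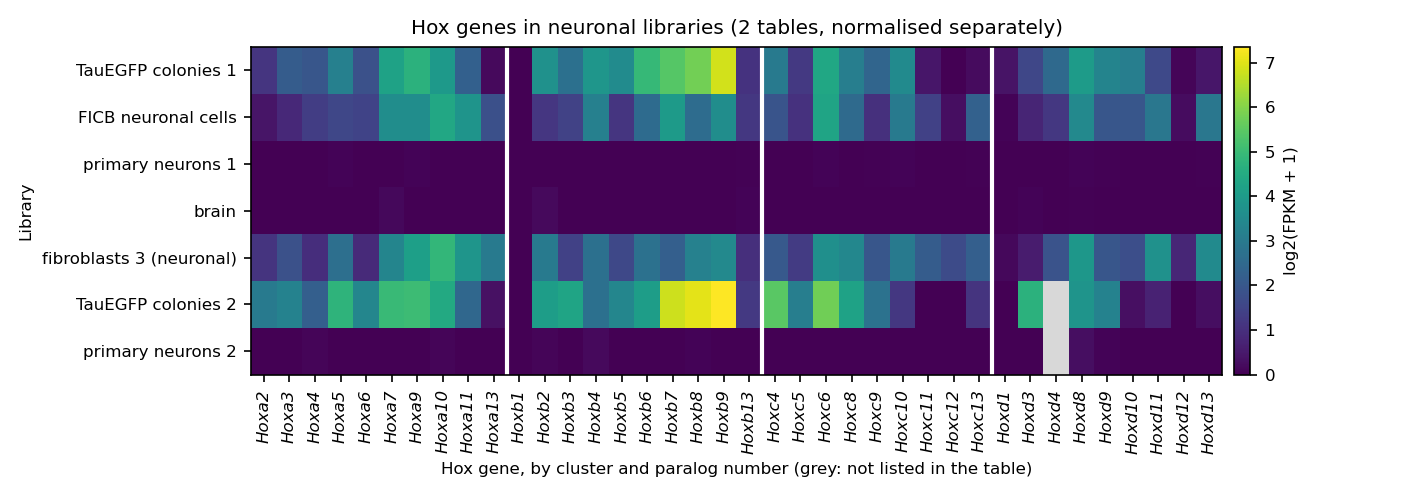
Levels of Hox genes, as log2(FPKM + 1), in the libraries of the 2 neuronal tables, which were normalised separately. The rows of TauEGFP colonies are brightest from Hoxb7 to Hoxb9 and dark at Hoxa13, Hoxc12, Hoxd12 and Hoxd13, the FICB and fibroblast rows are brighter at Hoxa13 and Hoxd13, and the rows of primary neurons and brain are dark throughout.

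In the limma fit of these 4 libraries, with the table as a block, no gene was called (0% of 13625), so the adjusted p of Hoxb9 was 0.645 at a log2 difference of 7.10 ± 0.70. Of the 27 members 0 were called and 26 had an unadjusted p under 0.05. No share of all genes under that unadjusted p is given here, so the 26 cannot be read against a background. The fit had 1 residual degree of freedom, and the members passed the filter through the TauEGFP libraries. In the second table TauEGFP colonies 2 was on flow cell HJMKLALXX and primary neurons 2 on HVNJMCCXX. Group and flow cell cannot be told apart there, and no flow cell is named for libraries of the first table. With the first library of primary neurons alone, which had all 7 neuron markers, the values of the first table stand by themselves: Hox sums of 456 FPKM in TauEGFP colonies 1 against 0.515 FPKM in primary neurons. The second library of primary neurons, the one with astrocyte markers, also had no member at 1 FPKM. The 12 fibroblast markers summed to 1646 and 4088 FPKM in TauEGFP colonies 1 and 2 and to 23.4 and 154 FPKM in primary neurons 1 and 2, and the part of fibroblast RNA in the Hox levels was not tested.

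Within the first neuronal table single libraries were compared by log2 differences, with no replicate check and no test. Against fibroblasts, of 36 members that reached 1 FPKM in either library, 11 were higher in TauEGFP colonies 1 by a log2 difference of at least 1 (30.6%, against 25.2% of 15010 genes) and 7 lower (19.4%, against 8.56% of genes). The higher ones were Hoxb3 to Hoxb9, Hoxa4, Hoxd3, Hoxd9 and Hoxd10. The lower ones were all posterior, Hoxa11, Hoxa13, Hoxc11, Hoxc12, Hoxc13, Hoxd11 and Hoxd13. Hoxb9 was at 114 FPKM in TauEGFP colonies 1 against 9.89 FPKM in fibroblasts, and Hoxb8 at 54.3 against 8.44 FPKM. Hoxd13 was at 0.362 FPKM in TauEGFP colonies 1 against 10.5 FPKM in fibroblasts, and Hoxa13 at 0.137 against 7.09 FPKM. The fibroblast markers, which summed to 1646 FPKM in TauEGFP colonies 1 and 5068 FPKM in fibroblasts, were uneven. The lower sum came mostly from Col1a1 (227 against 2144 FPKM) and Col1a2 (116 against 1053 FPKM), while Col3a1 (644 against 501 FPKM), Dcn (329 against 180 FPKM), Lum (59.5 against 49.4 FPKM) and Twist1 (69.3 against 66.7 FPKM) were higher in TauEGFP colonies 1, and their part in the Hox values was not tested.

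Neuronal cells induced with FICB were set against the same fibroblast library. Of 35 members 1, Hoxb7, was higher by at least 1 on the log2 scale (2.86%, against 15.6% of 13778 genes) and 4 were lower, Hoxa5, Hoxa13, Hoxb2 and Hoxc12 (11.4%, against 11.4% of genes). Hoxb7 was at 15.1 FPKM with FICB against 3.65 FPKM in fibroblasts, while Hoxb8 and Hoxb9 were at 5.11 and 11.1 FPKM with FICB against 8.44 and 9.89 FPKM in fibroblasts. Hoxd13 was at 6.49 FPKM and Hoxa11 at 12.8 FPKM with FICB, against 10.5 and 13.2 FPKM in fibroblasts. Fibroblast markers summed to 2480 FPKM in the FICB library. Of the lists, the cofactors had 1 of 9 higher with FICB than in fibroblasts and 0 lower, the Polycomb genes 2 of 17 higher and 3 lower, Ezh2 among the lower, and the limb and body wall factors 0 of 13 higher and 3 lower. The axial regulators had 1 of 3 higher and 2 lower, the forebrain and midbrain genes 2 of 8 higher and 3 lower, the noncoding genes 1 of 6 higher and 1 lower, and the 9 trithorax and demethylase genes none either way.

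Between the 2 kinds of neuronal cells, 15 of 34 members were higher in TauEGFP colonies 1 than with FICB (44.1%, against 17.2% of 14896 genes) and 5 were lower (14.7%, against 4.75% of genes). The 5 were Hoxa11, Hoxa13, Hoxc13, Hoxd11 and Hoxd13. Hoxa11, for instance, was at 3.73 FPKM in TauEGFP colonies 1 against 12.8 FPKM with FICB. Hoxb9 stood at 114 FPKM in TauEGFP colonies 1 against 11.1 FPKM with FICB, and Hoxb6 at 29.6 against 4.89 FPKM. The cofactors had 3 of 9 higher in TauEGFP colonies 1 than with FICB and 0 lower, the Polycomb genes 4 of 16 and 0, the trithorax and demethylase genes 2 of 9 and 0, the axial regulators 3 of 6 and 1, the forebrain and midbrain genes 5 of 9 and 3, the limb and body wall factors 2 of 12 and 6, and the noncoding genes 5 of 8 and 1.

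The homeobox genes of the forebrain, which lies ahead of the Hox domain, were given beside these by value. Emx1 was at 0.223 FPKM in TauEGFP colonies 1 and listed at 0 with FICB, against 44.4 FPKM in primary neurons 1 and 15.0 FPKM in brain. Dlx1 was at 1.57 FPKM in TauEGFP colonies 1 and 0.142 FPKM with FICB, against 174 FPKM in primary neurons 1 and 30.8 FPKM in brain. En1, a gene of the midbrain and hindbrain border that fibroblasts also express, was at 36.4 FPKM in TauEGFP colonies 1 and 8.55 FPKM with FICB, against 0.467 FPKM in primary neurons 1 and 1.07 FPKM in brain. The median log2 difference of 14 such genes tested between TauEGFP colonies and primary neurons was -2.70, beside 0.13 over all genes, with 0 called. That fit includes the second library of primary neurons, whose markers went against its label.

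Of the other lists in TauEGFP colonies 1 against fibroblasts, the Hox cofactors had 6 of 9 higher by at least 1 on the log2 scale and 0 lower, among them Pbx3 at 27.4 against 6.13 FPKM and Meis1 at 19.9 against 8.74 FPKM. The axial regulators had 4 of 6 higher and 1 lower, with the retinoic acid receptor Rarb at 9.46 against 0.298 FPKM and Rarg at 16.2 against 63.9 FPKM, and Cdx2 at 1.75 FPKM against 0. The Polycomb genes had 3 of 17 higher and 1 lower, the trithorax and demethylase genes 1 of 9 higher, the forebrain and midbrain genes 3 of 8 higher and 2 lower, and the limb and body wall factors 2 of 13 higher and 9 lower. The noncoding genes had 5 of 8 higher, among them Gm53 at 24.98 against 10.9 FPKM, and 1 lower, Hoxa11os at 3.61 against 21.5 FPKM.

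The library labelled P24 was measured alone. It had 23 of 39 members at 1 FPKM or more and a summed Hox level of 126.5 FPKM, of which 62.4% was posterior. Hoxa10 led with 28.5 FPKM, followed by Hoxb7 with 10.9 FPKM and Hoxa9 with 8.32 FPKM. Hoxb8 and Hoxb9 were at 5.53 and 7.85 FPKM, Hoxa13 at 5.33 FPKM and Hoxd13 at 2.84 FPKM. These levels stand in a library with hepatocyte markers, as given at the start, and its table holds no other library to compare.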

How the data were processed

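The deposited values are FPKM made by the authors. The submitters' processing notes name TopHat2 and the build mm10. The counting tool, annotation and filters are not given in the sources used here. RNA was poly-A selected per the labels' protocols. One table names the unit in its header, and for the others FPKM was judged from the values. Total counts are unknown. The apparent depth was read from the smallest values of single-exon genes, is rough, and no interval was computed from it. Rows with repeated identifiers (118 in the hepatic, 99 in the first neuronal and 118 in the P24 table) and 1 row with an empty cell were dropped. Positions and overlaps came from GENCODE vM21.

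Values were taken as log2(FPKM + 1), and a difference on that scale understates the change of low genes. Two-sided tests were made with limma 3.58.1 in R 4.3.3 with a variance trend, on all libraries of a table (flow cell as a term in the XEN table) and, for TauEGFP colonies against primary neurons, on 4 libraries with the table as a block. Genes with 1 FPKM in 2 libraries of the comparison entered, p-values were adjusted over all of them, and the fits were checked on simulated data. Members always named were Hoxb7, Hoxb8 and Hoxb9. Up to 10 further called members per comparison, with at least 5 FPKM in the higher group, were named by the size of their difference, and others are given by value. In a list, called genes with the largest differences were named, at most 4 per comparison. Emx1, Dlx1, En1, Rarb and Gm53, and list genes printed with no call, were chosen after their values were seen. The members and lists were chosen with earlier results of these data known. In TauEGFP colonies and primary neurons the replicate number is the table, so the block pairs libraries of 1 table. The correlation of their deviations from the group means was -0.10. Pseudocount, filter, scaling, variance trend, flow cell and single libraries were varied. Some genes that enter the counts, sums and medians are not reported here by name or in the figures.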

Additional observations from a re-analysis of the deposited data

Results flagged for a closer look

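The Hoxc4 and Hoxc9 values stood far from the other libraries of their group, out of 32 members examined in the colonies and 15 in the hepatocyte-like cells, where chance alone sets apart about 1 group in 20. Hoxc4 was at 8.71 FPKM in colony 2, while the other 7 colonies lay between 6.53 and 7.35 FPKM. Hoxc9 was at 3.95 FPKM in hepatocyte-like library 3, while the other 3 lay between 1.63 and 1.82 FPKM. Libraries outside the comparisons between groups held clear Hox signal. The summed Hox level was 126.5 FPKM in the library labelled P24 and 93.6 FPKM in the eXEN library.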

How the results depend on the processing

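No value of a named member turned its direction with a call under any alternative. Of 666 such recomputed values 634 kept their direction and their side of the threshold, 28 lost a call and 4 gained one. The count of called members in colonies against fibroblasts, 11, was 7 within the HVN flow cells and 6 within flow cell HJMKLALXX, where fewer libraries entered, and 9 to 12 when single libraries were left out. In lines against fibroblasts it was 8, 14 after median-ratio scaling and 7 to 9 without single libraries. Between F25 and s39 it was 0, 1 within the HVN flow cells and 0 to 4 without single libraries. In hepatocyte-like cells against fibroblasts it was 19, and 2 to 21 without single libraries, the lowest where 1 fibroblast library was left and fewer members were tested. Against hepatocytes and against hepatic tissue it was 11, and 8 to 13. No share of all genes is set beside these alternative counts here. Colonies and fibroblasts share replicate numbers 1 and 2 that the labels do not tie together. With a replicate block in place of the flow cell term, 10 members were called and Hoxb4 lost its call (log2 difference -0.80, adjusted p = 0.0581). In TauEGFP colonies against primary neurons 0 members were called with the replicate block, without it and with crossed numbers. Leaving out a library there needed a fit without the block, with 0 called, and without either TauEGFP library no member passed the filter. Depth limits the low values, since a member at 0 may be present below detection, and a listed 0 may not be a low level, as the zeros of Alb show.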
